A study of Mus musculus with 12 samples.

Results

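The mouse microRNAs (miRNAs) of immortalized mouse macrophages before stimulation were described from 3 samples labelled 0 min, out of 12 samples in the series. The members were all 566 entries of the deposited table whose names mark a mouse miRNA, out of 626 entries, and no stimulated sample entered any value given here. The cells, named IMM in the labels, are a macrophage line kept in culture without limit, and total RNA was counted on a NanoString nCounter miRNA panel. The series' design text calls the 3 samples biological replicates and the control of a time course with lipopolysaccharide (LPS). LPS is the bacterial cell wall component that activates macrophages. The protocol gives an LPS dose of 100 ng/mL for the series, and the samples described here had 0 min of stimulation. The strain and the means of immortalization are not given in the sources used here, nor is what medium change the 0 min dishes received.

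A miRNA is a short RNA that guides an Argonaute protein to messenger RNAs, which are then translated less and decay sooner. Target choice rests mainly on the seed, bases 2 to 8 from the 5′ end, so that miRNAs with 1 seed form a family with overlapping targets. Each is cut from a hairpin precursor with a 5p and a 3p arm, and several precursors are often made from 1 primary transcript. Of the miRNAs known from macrophages, miR-142 and miR-223 mark the blood and myeloid lineages, whereas miR-146a and miR-155 are known for their induction by Toll-like receptor signalling. The panel joins a tag to every miRNA by ligation and then counts coded probes that hybridize to it, and the efficiency of each step differs between miRNAs. Rank and share below are therefore those of the signal, not of molecules.

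The resting repertoire was dominated by a few seed families. Among the 92 detected entries with a known sequence, the 5 seeds with the highest summed share held 59.8% ± 1.61 of the mouse miRNA signal (SD, n = 3 here and below unless said otherwise). Entries without a matched sequence, miR-1944 and miR-720 among them, are outside this ranking of seeds. The sequences below are those of the most abundant entries of these families, from the RefSeq annotation of the mouse genome build GRCm38.p6, with the seed in capitals. They are shown because members of a family share the capitals and differ only outside them.

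miR-20a-5p: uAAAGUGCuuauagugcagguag
miR-20b-5p: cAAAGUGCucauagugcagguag
miR-17-5p: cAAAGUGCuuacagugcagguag
miR-106a-5p: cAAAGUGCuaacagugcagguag
let-7g-5p: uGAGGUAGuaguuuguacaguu
let-7a-5p: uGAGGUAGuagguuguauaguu
let-7d-5p: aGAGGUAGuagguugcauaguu
let-7i-5p: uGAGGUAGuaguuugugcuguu
miR-15b-5p: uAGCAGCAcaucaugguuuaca
miR-16-5p: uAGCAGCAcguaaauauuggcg
miR-15a-5p: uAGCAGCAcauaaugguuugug
miR-19a-3p: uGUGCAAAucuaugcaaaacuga
miR-27a-3p: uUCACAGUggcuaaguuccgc

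The mature sequence of miR-20a-5p lies at chr14:115044183-115044205 on the plus strand, in the cluster that starts with miR-17, whose 5p arm lies at chr14:115043684-115043706. That of let-7g-5p lies at chr9:106178846-106178867 on the plus strand, within the gene Wdr82. The panel reads miR-20a and miR-20b as 1 entry, and likewise miR-106a and miR-17, which differ at 1 of 23 bases. Between the 9 detected let-7 members, pairs differed at 1 to 6 of 22 bases. How far near-identical members share a probe's signal was not tested. Of the 20 most abundant entries 17 matched a sequence, giving 19 mature miRNAs, of which 13 start with U. Of all 135 entries above the floor, 92 matched.

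The deposited signal had the form of counts times 1 factor per sample, with a lowest value of 20, called the floor. Dividing by the factor gave 114754, 173145 and 150835 mouse miRNA counts above the floor in replicates 1, 2 and 3. The factor was 2.26 in replicate 1, against 0.866 and 0.849 in replicates 2 and 3. Replicate 1 thus stood apart. Its housekeeping mRNAs gave 882 counts per 1000 positive control counts, against 2667 and 2289, and its positive ligation controls gave 142, against 278 and 293. Its mouse miRNA counts above the floor were the lowest, at 4948 per 1000 positive control counts, against 8695 and 7005. Yet after the factor its signal was the highest of the 3 for 133 of the 135 entries detected in all samples. The exceptions were miR-342-3p and miR-376a. The median ratio of signal was 1.79 between replicates 1 and 2, 1.89 between 1 and 3, and 1.07 between 2 and 3. Shares of each sample's summed signal remove such a sample-wide difference: the coefficient of variation had a median of 36.6% for signal and 13.1% for share over 111 entries above background. Shares are therefore the main measure below, and results without replicate 1 stand with the other settings after the report.

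A total of 135 of the 566 entries (23.9%) lay above the floor in all 3 samples. The highest of the 8 negative hybridization controls reached 32, 26 and 28 counts, and 111 entries exceeded it in every sample. Another 17 entries lay above the floor in 2 samples and 41 in 1 sample. Of these 41, 22 did so only in replicate 1, and 21 of the 22 did not exceed the highest negative control there. The remaining 373 entries (65.9%) were at the floor throughout. At the floor an entry stands for a signal under 45.3 in replicate 1, under 20.8 in replicate 2 and under 20.4 in replicate 3, so its absence from these cells is not shown. No plant or worm entry and no negative ligation control rose above the floor.

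**Figure D1:**
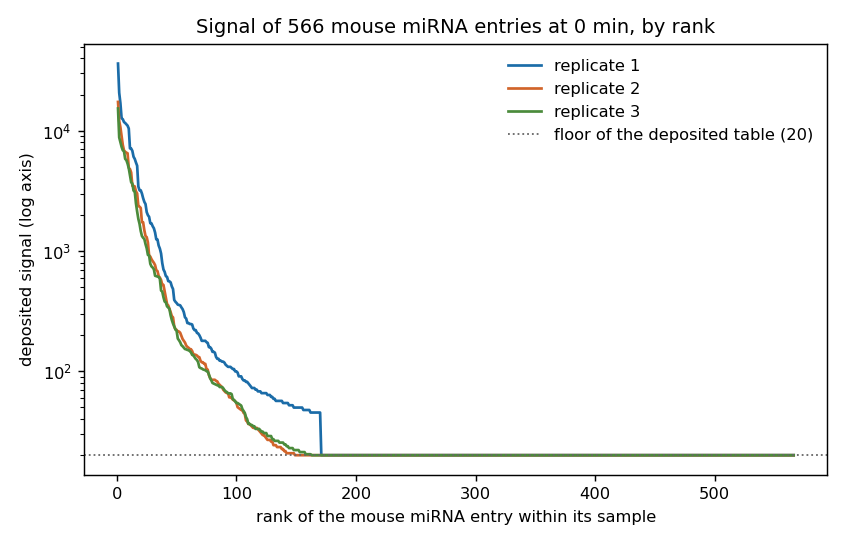
Deposited signal (log axis) of the 566 mouse miRNA entries against their rank within each sample, with 1 line per replicate and the floor of 20 dotted. The signal falls from 36250, 17388 and 15331 at rank 1 to the floor, which is reached after 170 entries in replicate 1 and 162 in replicate 3. The line of replicate 1 drops to the floor from 45.3, and the other 2 reach it from about 20.

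The fall with rank was steep. The 9 highest entries held 50% of the signal in each of the 3 samples. The 20 highest held 76.5% ± 1.41, the 50 highest 90.3% ± 1.57 and the 100 highest 94.0% ± 1.39. By mean signal, 31 entries reached 1000 or more, 49 lay between 100 and 1000, and 55 of the detected entries stayed under 100. The order of entries was much the same in the 3 samples. Spearman's rank correlation across the 135 entries was 0.981, 0.974 and 0.982 between pairs of samples, as a description, since entries share each sample's factor. Of the 20 highest by mean share, 19 were among the 20 highest of every sample.

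The entry for miR-20a and miR-20b, seed family members known for promoting proliferation, ranked first in all 3 samples. Its signal was 36250 in replicate 1, 17388 in replicate 2 and 15331 in replicate 3, and its share 11.9% ± 1.40. It was followed in every sample by let-7g, which gave 20686, 12083 and 8802, a share of 7.28% ± 0.703. The difference between these first entries had the same sign in all samples and a mean of 0.71 on the log2 scale, larger than its SD of 0.16.

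Below them the order was less settled. Next came miR-1944 at 5.82% ± 0.481, let-7a at 5.38% ± 1.23 and miR-720 at 5.13% ± 0.670, and their order changed between samples. The entry for miR-106a and miR-17 held 4.50% ± 0.478. The next members, let-7d, let-7i and miR-15b, held 4.36%, 4.196% and 4.17%. These values did not differ beyond their spread. A step followed to miR-27a at 3.30% ± 0.544, with miR-15b above it in all 3 samples by a mean of 0.35 on the log2 scale (SD 0.24).

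From miR-27a to miR-142-3p no neighbours in the order differed beyond their spread. Those ranks were held by miR-16 (3.09%), miR-19a (2.80%), miR-15a (2.50%), miR-23a (2.26%), miR-25 (2.08%) and miR-142-3p (2.07%). The list of 20 closed with let-7b at 1.83%, miR-146a at 1.38%, let-7f at 1.24% and let-7c at 1.15%. Of the 19 neighbouring pairs, 7 kept 1 sign in all samples with a mean beyond the SD, and 12 did not. With 3 samples an exact two-sided paired test cannot go below p = 0.25, so none was run.

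**Figure D2:**
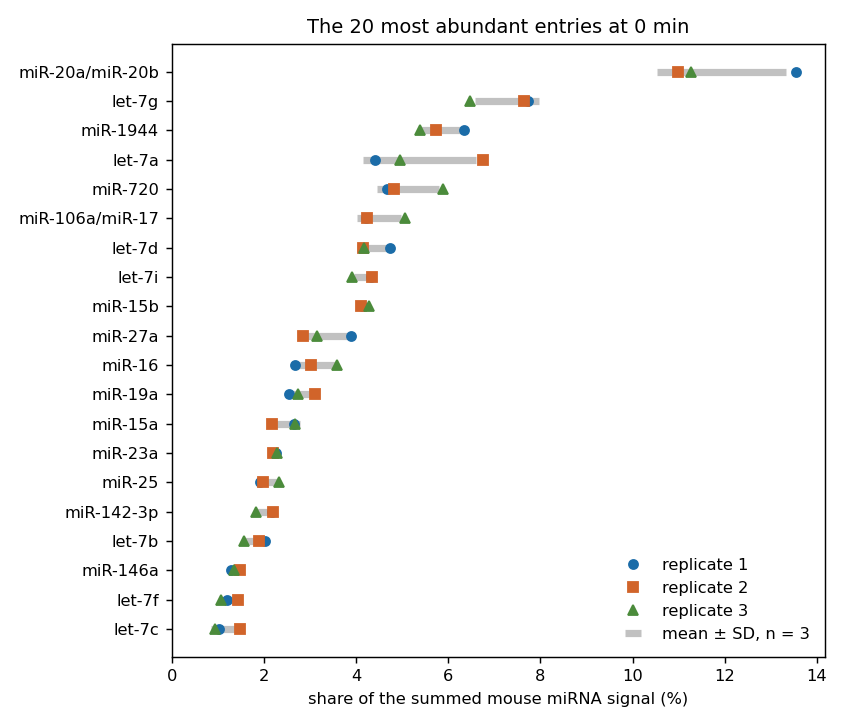
Share of the summed mouse miRNA signal (%) of the 20 entries with the highest mean share, with 1 point per replicate and a grey bar for mean ± SD (n = 3). The entry for miR-20a and miR-20b stands apart at 11.0% to 13.5%, and from miR-27a to miR-142-3p the points of neighbouring entries overlap.

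The let-7 family, which restrains growth and keeps cells differentiated through targets such as Lin28 and Hmga2, was present as a whole. All 9 of its entries lay above the highest negative control in all samples. Their summed share was 26.2%, 28.4% and 23.7% in replicates 1, 2 and 3, the largest share of any seed among entries with a sequence. Within the family let-7g, let-7a, let-7d and let-7i held the upper ranks and let-7e the lowest. The signal of let-7e was 369.1, 221 and 165, and that of miR-98, the member with another name, 1696, 823 and 611. The ratio of let-7g to let-7c was 6.51 ± 1.21. The median of mean signals over the 9 members was 3530, against 138 over all detected entries and 20 over all mouse entries.

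The seed AAAGUGC of the miR-17 family came second among them at 16.9% ± 1.22. It was read by 4 entries. Besides the 2 named above these were miR-106b, with a signal of 702, 524 and 459, and miR-93, with 247, 196 and 217. Both come from the cluster within the gene Mcm7 on chromosome 5. Nearly all the signal of this seed thus came from the 2 paired entries.

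The whole group of miR-17/92 and its paralogs was detected in part: 8 of 11 entries, all 8 above the highest negative control, with a share of 22.7% ± 0.872. The entries that read the cluster on chromosome 14, which promotes proliferation and survival through targets such as Bcl2l11, lay far apart. Those for miR-20a and miR-20b, for miR-106a and miR-17, for miR-19b and for miR-92a also read the paralogous cluster on chromosome X. The entry for miR-20a and miR-20b had a mean signal of 22990 and that for miR-106a and miR-17 8296. The 19a member gave 5150 ± 1552, miR-19b 1516 ± 408 and miR-18a 121 ± 20.5.

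The last member of the chromosome 14 transcript, miR-92a, which is also encoded on chromosome X, was at the floor in all 3 samples. So were miR-363 and miR-18b. By contrast miR-25, which shares its seed with miR-92a, gave 5122, 3139 and 3174. The sequences of both are shown because their capitals are the same while 1 was abundant and the other was not detected.

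miR-25-3p: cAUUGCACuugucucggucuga
miR-92a-3p: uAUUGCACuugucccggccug

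The miR-25 precursor shares its host gene Mcm7 with miR-106b and miR-93. In the panel's signal miR-25 was the highest of these 3, at 6.73 ± 0.670 times miR-106b and 17.1 ± 3.21 times miR-93. Why entries that read members of 1 cluster gave unequal signal was not tested.

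**Figure D3:**
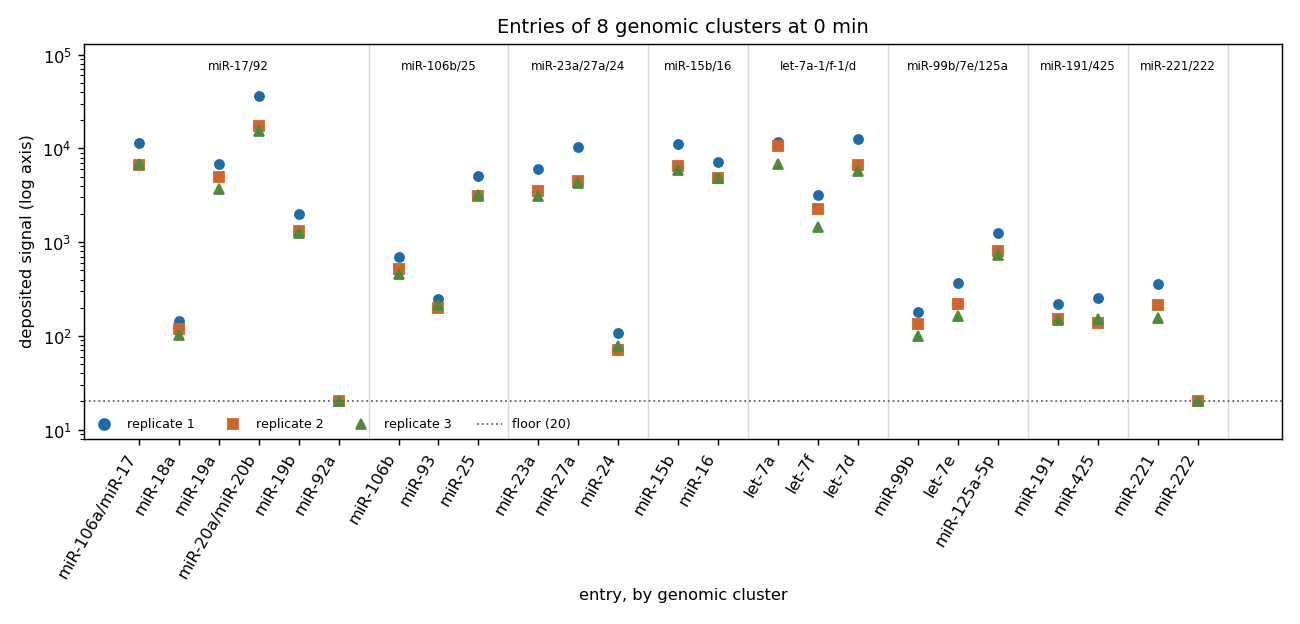
Deposited signal (log axis) of the entries of 8 genomic clusters, with 1 point per replicate and the floor of 20 dotted. Entries grouped under 1 cluster span up to 3 orders of magnitude, as from miR-20a and miR-20b to miR-18a and miR-92a, and miR-92a and miR-222 sit at the floor in all 3 samples.

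The miR-15/16 family, which lowers cyclins and Bcl2, held 9.87% ± 0.693. Detected were miR-15b, miR-16, miR-15a and miR-322, while miR-195 and miR-497 were at the floor. The miR-15b precursor and 1 of the precursors of miR-16 lie within Smc4 on chromosome 3, and miR-15a with the other within Dleu2 on chromosome 14. The signal of miR-15b was 11037, 6504 and 5840, and that of miR-15a 7115, 3444 and 3641. Their levels stood at 1.37 ± 0.175 and 0.820 ± 0.1536 times that of miR-16. The fourth member, miR-322, was much lower at 206, 104 and 126.5.

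All 5 entries of the miR-23/27/24 clusters, regulators of myeloid and lymphoid differentiation, were detected, with a share of 5.74% ± 0.572. The copies on chromosome 8, miR-23a and miR-27a, gave nearly all of it. The signal of miR-27a was 10439, 4494 and 4287, and that of miR-27b 111, 57.1 and 53.5. The ratio of these near-identical miRNAs was 84.3 ± 8.51. The ratio of miR-23a to miR-23b was 21.9 ± 0.229, and its values were almost the same in the 3 samples. In contrast miR-24, which both clusters encode, was low at 109, 70.1 and 79.0, and miR-27a exceeded it 54.3-fold to 96.0-fold.

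The sequences of miR-27a and miR-27b are shown because they carry 1 seed and differ little, yet their signals lay far apart.

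miR-27a-3p: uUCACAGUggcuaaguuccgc
miR-27b-3p: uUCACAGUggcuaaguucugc
miR-24-3p: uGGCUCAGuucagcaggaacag

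Smaller families were present in full or in part. All 3 entries of miR-29, known for lowering collagens and DNA methyltransferases, were detected with a share of 1.79% ± 0.176. The order was miR-29a, miR-29b and miR-29c, with mean signals of 1842, 1268 and 246. All 5 of miR-30 were detected, but miR-30c gave most of their 0.783% ± 0.0426, with a signal of 1703, 854 and 783, while miR-30e was as low as 24.6 in replicate 3.

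The families of miR-99/100 and miR-125 share clusters with let-7 genes. All 3 entries of the former were detected at 0.736% ± 0.0547, led by miR-99a at 1606, 898 and 919. Of the miR-125 family, known for repressing apoptosis and differentiation genes in blood cells, miR-125a-5p gave 1250, 797 and 728 and miR-125b-5p 793, 573 and 586. The related miR-351 was at the floor. In the cluster of miR-99b, let-7e and miR-125a on chromosome 17, miR-125a-5p was 3.81 ± 0.545 times let-7e and miR-99b 0.568 ± 0.0724 times let-7e.

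Of other pairs, miR-103 and miR-107, from introns of the pantothenate kinase genes Pank3, Pank2 and Pank1, gave mean signals of 380 ± 90.9 and 164 ± 43.2. The cluster mates miR-191 and miR-425, within Dalrd3, were close to each other, with a ratio of 0.978 ± 0.114. The growth-promoting miR-221 gave 358, 214 and 157, whereas its cluster mate miR-222 was at the floor in all samples. In the family of miR-130 and miR-301 miR-130b (535 ± 129) and miR-301a (270 ± 94.2) were detected, and miR-130a and miR-301b were at the floor. Of the family of miR-148 and miR-152, miR-148b (465 ± 126) was detected in all samples, miR-152 in 1 sample near the floor, and miR-148a in none. In the families of miR-221, miR-130 and miR-148 a detected member thus stood beside a close relative at the floor. Of miR-26, miR-26b gave 126.8, 78.8 and 79.8, and miR-26a was at the floor in replicate 3 and next to it in the others. Of miR-181, known in lymphoid cells, miR-181a gave 507, 280 and 249 and the entry for miR-181b and miR-181d was at the floor. Of miR-101, miR-101b gave 145, 54.5 and 54.3.

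**Figure D4:**
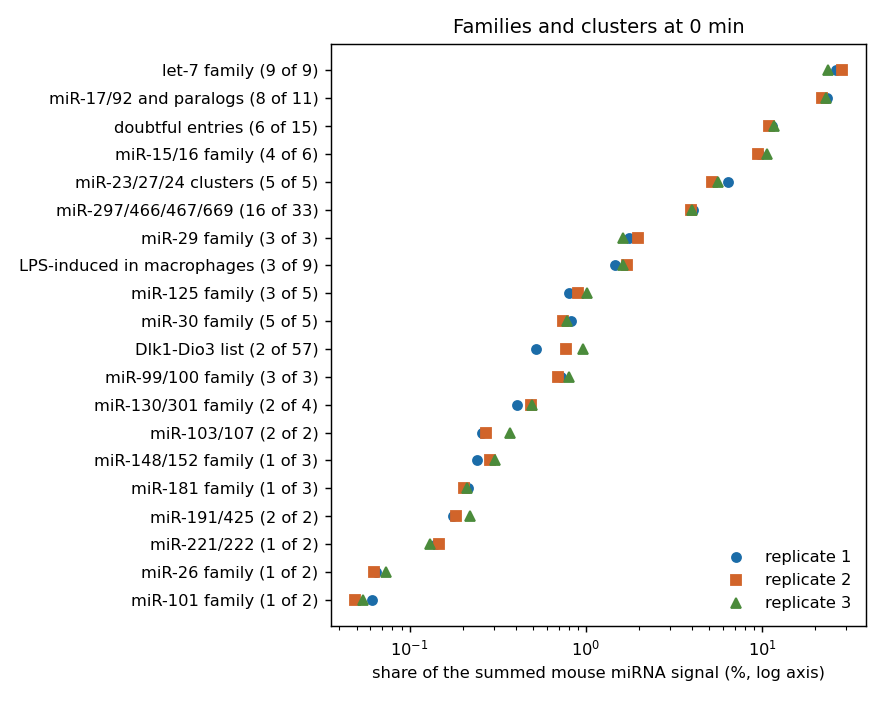
Share of the summed mouse miRNA signal (%, log axis) of 20 families, clusters and lists defined by name, with 1 point per replicate, and in brackets the entries above the floor in all 3 samples of all entries on the panel. Floored entries count at 20. The let-7 and miR-17/92 groups lie above 20% in every sample, and the Dlk1-Dio3 list, whose signal is mostly floor, spreads from 0.523% to 0.958%.

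Both arms were on the panel for 65 precursors. In 7 of them both arms lay above the floor in all 3 samples, in 8 the 5p arm only and in 5 the 3p arm only. In 34 both were at the floor throughout, and in 11 an arm rose above it in some samples only. Most names (105 of 135 detected) give no arm.

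The arms of detected precursors differed widely. For miR-142 the 3p arm gave 5836, 3486 and 2491 and the 5p arm 179, 77.0 and 67.9, a ratio of 38.2 ± 6.45. The 3p arm was also the higher for miR-199a, at 6.496 ± 1.97 times the 5p arm. The 5p arm was the higher for miR-340, at 7.92 ± 1.46 times the 3p arm. It was also the higher for miR-125a, at 1250, 797 and 728 against 70.2, 23.4 and 25.5, but the 3p arm was at background in replicate 1, with 31 counts against a highest negative control of 32, so no ratio is given. The arms of miR-423, miR-362 and miR-202 were closer. The ratio of 3p to 5p was 1.67 ± 0.770 for miR-423. For miR-362 the 3p arm gave 131, 65.8 and 54.3 and the 5p arm 63.4, 29.4 and 31.4, with the 5p arm not above the highest negative control in replicate 1. The mean signals of miR-202 were 40.8 for 5p and 36.2 for 3p, both near background.

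Where 1 arm was at the floor, the other was often well above it. The 5p arm alone was detected for miR-125b, miR-139, miR-151, miR-1839, miR-324, miR-345, miR-450a and miR-532. Its mean signal ran from 33.3 for miR-1839 to 650 for miR-125b. The 3p arm alone was detected for miR-126, miR-338, miR-342, miR-466d and miR-770, from 33.2 for miR-338 to 211 for miR-466d. Among the arms detected alone, miR-1839-5p, miR-345-5p, miR-338-3p, miR-342-3p and miR-770-3p did not exceed the highest negative control in every sample.

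Lineage markers were examined to check the label. Of 11 entries of miRNAs known in myeloid and blood-forming cells, 8 (72.7%) were above the floor in all samples and 7 above the highest negative control. The fractions were 23.9% and 19.6% for all mouse entries, and 50.7% and 44.8% for entries numbered up to 200 or named let-7. Not all 11 are specific to a lineage, and how far the make-up of the list raised its fraction was not tested. The 11 entries summed to a signal of 14279, 8334 and 6579. They were led by miR-142-3p and by miR-146a, which limits Toll-like receptor signalling through Irak1 and Traf6. The myeloid miR-223, a brake on granulocyte function, gave 1245, 680 and 617. The ubiquitous miR-22 gave 3007, 1333 and 1141, and miR-21, which lowers Pdcd4, 251, 173 and 180.8. The rest were miR-322, miR-142-5p and miR-342-3p, the last of which did not exceed the highest negative control in replicate 1. The entries for miR-155, miR-148a and miR-342-5p were at the floor. The level of miR-142-3p was 4.61 ± 0.547 times that of miR-223.

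Markers of several other lineages were at or near the floor, as were most entries of the panel, 65.9% of which were at the floor in all samples. All 3 erythroid entries (miR-451, miR-144, miR-486) and all 7 muscle entries, among them miR-1 and miR-133a, were at the floor in every sample. So were 14 of 16 entries of pluripotent cells, the other two lying above it in 1 sample each. Of 7 epithelial entries, miR-200c and miR-200b lay above the floor in all samples at mean signals of 36.6 and 32.8, and none exceeded the highest negative control throughout. The 7 epithelial entries summed to 202, 151 and 161, against 140 if all were at the floor. None of 7 neural entries was detected in all samples. Of the liver entries miR-122 was at the floor and miR-192 gave 49.8, 24.2 and 26.3. Of the 2 lymphoid entries, miR-150 was at the floor, while miR-181a gave 507, 280 and 249, above the highest negative control in every sample.

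A few entries of other lists were clearly present. The endothelial marker miR-126-3p gave 310, 157 and 150, with its 5p arm at the floor. Among 7 mesenchymal entries miR-199a-3p gave 953, 463 and 380 and miR-199a-5p 109, 84.8 and 72.2, while miR-143, miR-145, miR-214 and miR-10b were at the floor. The endocrine list held miR-7a at 548, 287 and 267, with miR-375 at the floor. Whether other cells or these macrophages gave this signal was not tested.

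**Figure D5:**
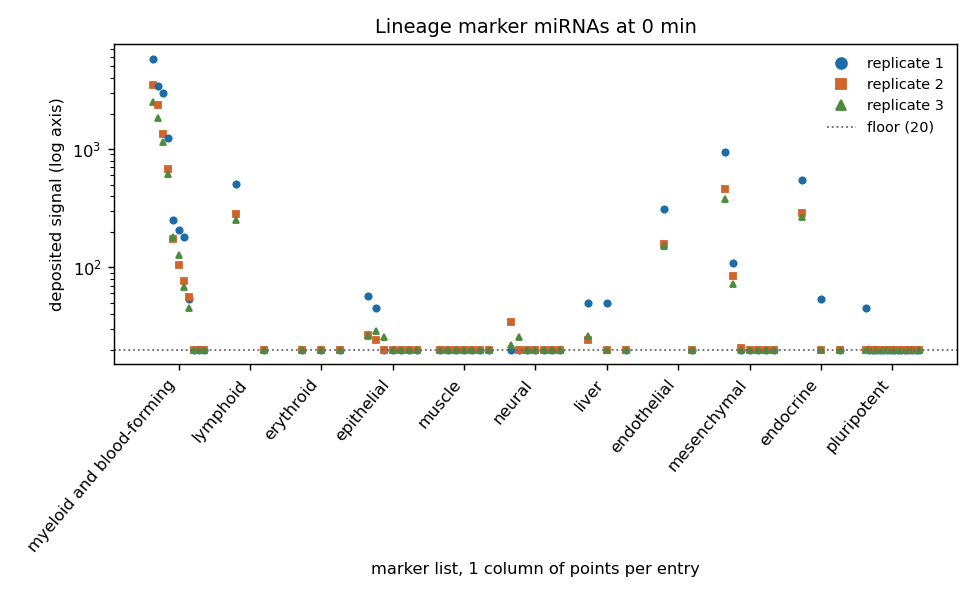
Deposited signal (log axis) of the entries of 11 lineage marker lists, with a column of 3 points per entry, 1 point per replicate, and the floor of 20 dotted. The myeloid and blood-forming entries reach from the floor to 5836, while all erythroid and muscle entries lie on the floor.

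Of 9 entries for miRNAs known to be induced by LPS in macrophages, 3 (33.3%) were detected in the resting cells, a share near the 23.9% of all mouse entries. The highest was miR-146a, with 3440, 2365 and 1849, at 12.5 ± 1.99 times miR-21. The third was miR-132, a CREB-induced miRNA, with 90.6, 47.6 and 57.7. The other 6, miR-155, miR-146b, miR-147, miR-212, miR-187 and miR-9, were at the floor in all 3 samples. The sequences of miR-146a and miR-155 are given as the high and the undetected member of this list.

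miR-146a-5p: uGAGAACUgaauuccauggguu
miR-155-5p: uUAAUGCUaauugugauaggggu

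Entries of 2 large groups of repeated or clustered miRNAs were gathered by name. The first was a list of 57 entries, chosen by miRNA name, of the Dlk1-Dio3 region of chromosome 12, whose miRNAs are made from the maternal copy and are known from embryonic and neural tissue. Of these, miR-136 (153.99, 92.6 and 119) and miR-376a (52.1, 33.8 and 73.9) were above the floor in all 3 samples, and miR-376a was not above the highest negative control in replicate 1. Another 4 of the 57 rose above the floor in some samples and 51 in none. The 2 entries above it throughout were 3.51% of the list, against 23.9% of all mouse entries. The list was not complete. RefSeq placed 5 further entries of the panel between Dlk1 and Dio3, of which miR-770-3p, within Meg3, was above the floor in all samples (56.6, 28.6 and 27.2) though not above the highest negative control in replicate 1, and miR-770-5p, miR-1906, miR-432 and miR-882 were at the floor.

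The other group held the 33 entries named miR-297, miR-466, miR-467 or miR-669, repeated miRNAs known mainly from an intron of Sfmbt2 on chromosome 2. It was defined by these names and not by position: of its entries, the 5 that matched RefSeq each name a miRNA placed on another chromosome, among them the detected miR-467f, within Fxr2 on chromosome 11. Above the floor in all samples were 16 of the 33 (48.5%), against 23.9% of all mouse entries. The highest negative control was exceeded throughout by 12 of the 33, against 19.6% of all mouse entries. Their summed share was 4.07%, 3.95% and 3.99%. The highest entries were the one for miR-466a-3p and miR-466b-3-3p at 3200, 1490.5 and 1684, miR-669f at 2106, 1733 and 928, miR-467c at 1544, 763 and 744, and miR-669a at 1424, 600.7 and 608. These miRNAs are near-identical repeats, so that the level of a single member is uncertain.

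Some abundant entries may not be miRNAs. A hand-made list of 15 entries of doubtful status, not checked against a database, held 11.3% ± 0.390 of the signal through 6 detected entries. Nearly all of it came from miR-1944 and miR-720. The latter is known as a fragment of a transfer RNA. The signal of miR-720 was 12486, 7625 and 8023, and that of miR-1944 16993, 9058 and 7350. The other 4, miR-2141, miR-1937c, the entry for miR-1937a and miR-1937b, and miR-2146, had mean signals between 50.2 and 203.

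Of the 135 detected entries 45 belonged to none of the lists above, and 14 of these had a mean signal of at least 100. The highest are named here after their values were seen. The mirtron miR-1224 gave 2563, 918 and 1054, the only one of the 45 with a mean of at least 1000. Next came miR-378, which lies in the coactivator gene Ppargc1b and is known in fat and energy metabolism, with 1110, 619 and 622. It was followed by miR-340-5p with 1046, 692 and 469, miR-532-5p with 618, 352 and 339 and miR-151-5p with 562, 362.7 and 329.4.

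Low miRNA numbers, which were given first, were detected more often than high ones. Of entries numbered up to 200 or named let-7, 50.7% (68 entries) lay above the floor in all samples, and they held 76.2% ± 1.33 of the signal. Of those numbered above 1000, 13 of 111 (11.7%) did. Of the precursors of detected entries, 102 were placed on the genome and 63 of them lay within the bounds of another annotated gene, on either strand.

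Replicate spread was small for most entries above background. Over the 111 entries above the highest negative control in all samples, the highest share divided by the lowest had a median of 1.28, and it was under 1.5 for 95 entries. It reached 2 or more for 3. These were miR-760, with a signal of 120, 33.8 and 76.4, miR-652, with 106.4, 48.5 and 87.4, and miR-1187, with 97.4, 27.7 and 33.1. Next came miR-423-3p at a ratio of 1.92 and miR-30e at 1.75. All 5 had mean signals of under 100.

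At the lower end of the detected entries, signal and background could not be separated. The 5 with the lowest mean were miR-200b, miR-338-3p, miR-669h-5p, miR-1839-5p and miR-192, at 32.8 to 33.5. Their counts ran from 20 to 22 in replicate 1 and from 24 to 34 in replicates 2 and 3, against highest negative controls of 32, 26 and 28 counts. In all, 24 of the 135 detected entries did not exceed the highest negative control in every sample.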

How the data were processed

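Per the labels, total RNA of the macrophages was extracted with a miRNeasy kit and counted on a NanoString panel. The software, background rule and normalization are not given in the sources used here, so the deposited values are called signal. A single step was found for each of the 3 samples, and 100% of the signal values between 20 and 2000 came out whole when divided by it (tolerance 0.1). The 4 housekeeping mRNAs had a geometric mean of 9390.3 in each sample, so the signal of the 3 samples stood on a common housekeeping scale. The rows of hybridization controls in the deposited table are counts, whole and unscaled. Signal was divided by the step to recover counts, and shares were taken over the 566 mouse entries with floored entries at 20. Precision is limited by 3 samples and, near the floor, by counts of 20 to 34.

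The step search was tested on simulated data and recovered 30 of 30 steps. Python 3.11.15, pandas 2.3.3 and NumPy 2.4.6 were used. Every value is a description of 1 group, without tests.

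The members and lists were chosen with earlier results of these data known. Entries were named by a written rule: the 20 with the highest mean share, list members, pairs of arms, the 5 least steady above background and the 5 lowest detected. Neighbours in rank were said to differ where the log2 difference kept 1 sign in all samples and its mean exceeded its SD. Entries and RefSeq sequences were matched by name (265 of 566), and for names without an arm the arm was assigned by hand from current naming. Precursors at most 10 kb apart on 1 strand formed a cluster. The 9 stimulated samples were not used here.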

Additional observations from a re-analysis of the deposited data

Results flagged for a closer look

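The panel held 33 entries for miRNAs of mouse herpesviruses, which none of the descriptions above used. In 0 min replicate 1, 7 of them lay above the floor, in replicate 3, 4, and in replicate 2 none. None was above the floor in all 3 samples. The highest gave 29 counts in replicate 1 and 28 counts in replicate 3, against highest negative hybridization controls of 32 and 28 counts, so none exceeded the highest negative control of its sample.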

How the results depend on the processing

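Of 49 recomputed values 43 stayed within the spread between replicates, or within 1.5 times for counts of entries. The 43 include the shares recomputed by leaving out 1 replicate, which could not have fallen outside that spread. Such a mean always moves by less than the SD of the same replicates. For these shares the label is thus no check, and their ranges below are given as a description. Without the 15 doubtful entries in the sum, the share of the entry for miR-20a and miR-20b was 13.5%, that of the let-7 seed 29.4% and that of the miR-17 seed 19.03%, by construction, since the total was smaller. The share of the 20 highest entries was 80.2% with floored entries as 0 and 81.1% with the mean negative control subtracted. The lowest Spearman correlation between samples was 0.893 over all mouse entries, where most are tied at the floor. Leaving out 1 replicate at a time gave 138 to 145 entries above the floor, 11.1% to 12.4% for the highest entry, 75.8% to 77.2% for the 20 highest, 24.96% to 27.3% for the let-7 seed, 16.2% to 17.5% for the miR-17 seed and 9 entries for 50% of the signal. Other limits for detection gave 111 entries above the highest negative control, 109 above the negative mean plus 2 SD, 103 above 45.3 in every sample and 193 in at least 1 sample. A limit chosen after seeing the data, the highest herpesvirus entry of each sample, gave 116. No paired analysis was possible because only the 0 min group was described and no result comes from a test.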
